A study of Mus musculus with 20 samples.

Results

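The Egr genes Egr1, Egr2 and Egr3 and the Nab genes Nab1 and Nab2 were followed across 20 arrays of mouse eosinophils grown from bone marrow. The 5 genes were taken by their symbols in the platform annotation, out of 17771 genes with a probe set of their own, and each was measured by 1 probe set. All 5 lay above the 40th percentile of the array on all 20 arrays, and all 5 entered the tests, which covered 11766 genes. The wild-type mice were Dusp5+/+ and the knockout mice Dusp5-/-, which lack Dusp5, a nuclear phosphatase that acts on the kinase ERK. Cells of 5 mice of each genotype were cultured to day 12 and then held in medium alone or given 25 ng/ml of IL-33, an epithelial alarm cytokine, for 4 h, which made 4 groups of 5 arrays. The sources used here do not give the deleted stretch of Dusp5 or the strain and age of the mice, so the Dusp5 probe set may lie outside the deletion.

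Egr proteins are zinc-finger transcription factors whose genes are switched on within minutes of a growth factor or cytokine signal. ERK phosphorylates ternary complex factors, which sit with serum response factor on CArG boxes in the promoters of Egr genes. Nab1 and Nab2 bind a short inhibitory domain of Egr1, Egr2 and Egr3 and repress transcription, in part through the CHD4 subunit of the NuRD complex, and Nab2 has been described as an Egr target that closes a feedback loop.

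Promoter windows running from 250 bases before to 50 after an annotated start were read from RefSeq (GRCm38.p6), with 5 windows for Egr2 and 1 each for Nab1 and Nab2. No window of Egr1 or Egr3 was read, so the motif matches below cover only Egr2, Nab1 and Nab2. The windows are shown because the Egr2 windows can hold the CArG boxes through which serum response factor acts, while the Nab windows can hold the Egr sites through which Egr proteins act. Capitals mark every match to 4 motifs, searched on both strands: the Egr site GCGTGGGC, the CArG box, the cyclic AMP response element core TGACG and the ETS core CCGGAA. Window B of Egr2 lay at chr10:67537316-67537615 and window C at chr10:67537619-67537918, both on the plus strand. The Nab1 window lay at chr1:52500399-52500698 and the Nab2 window at chr10:127666654-127666953, both on the minus strand.
Egr2 window B: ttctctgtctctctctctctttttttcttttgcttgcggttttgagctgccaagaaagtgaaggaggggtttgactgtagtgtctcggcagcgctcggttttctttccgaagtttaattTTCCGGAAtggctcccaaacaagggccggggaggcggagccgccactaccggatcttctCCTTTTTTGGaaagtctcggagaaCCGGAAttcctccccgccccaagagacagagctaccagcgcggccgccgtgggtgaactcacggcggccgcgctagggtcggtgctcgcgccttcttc
Egr2 window C: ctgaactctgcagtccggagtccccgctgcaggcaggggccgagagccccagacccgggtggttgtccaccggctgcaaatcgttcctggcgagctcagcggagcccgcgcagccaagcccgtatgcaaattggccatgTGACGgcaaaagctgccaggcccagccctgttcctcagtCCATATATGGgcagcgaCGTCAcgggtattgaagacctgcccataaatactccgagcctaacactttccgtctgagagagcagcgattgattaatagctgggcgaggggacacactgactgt
Nab1: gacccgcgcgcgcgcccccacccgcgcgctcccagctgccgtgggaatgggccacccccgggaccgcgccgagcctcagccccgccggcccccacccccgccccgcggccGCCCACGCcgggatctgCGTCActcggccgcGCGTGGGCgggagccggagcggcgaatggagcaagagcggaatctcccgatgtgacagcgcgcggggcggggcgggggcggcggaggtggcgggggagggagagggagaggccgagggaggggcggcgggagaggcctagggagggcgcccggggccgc
Nab2: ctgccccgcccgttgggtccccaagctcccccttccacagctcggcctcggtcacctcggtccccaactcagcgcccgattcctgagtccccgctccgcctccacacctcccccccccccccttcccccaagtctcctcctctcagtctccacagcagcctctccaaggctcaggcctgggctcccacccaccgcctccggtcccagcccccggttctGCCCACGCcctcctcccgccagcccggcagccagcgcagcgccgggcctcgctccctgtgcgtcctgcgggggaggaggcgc

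Each of Egr2 windows B and C held 1 CArG box, in both cases at bases -72 to -63 from its own start. Window B also held 3 ETS cores, of which 2 overlapped on opposite strands, and window C held 2 TGACG cores on either side of the CArG box. Nab1 held 2 Egr sites, at -140 to -133 on the lower strand and at -109 to -102 on the upper, with 1 TGACG core between them. Nab2 held 1 Egr site at -32 to -25. Among all 32851 windows of this length, 1.63% held an Egr site (537 windows), 1.63% a CArG box (535 windows), 20.81% a TGACG core and 14.9% an ETS core. The windows of both Nab genes were rich in G and C, 81.7% of bases for Nab1 and 74.0% for Nab2, and the 5 Egr2 windows ran from 56.0% to 72.0%. The remaining Egr2 windows were 1 with no match to any of the motifs and 2 that overlapped window C and held the same matches. These are matches of letters, and binding was not measured.

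**Figure D1:**
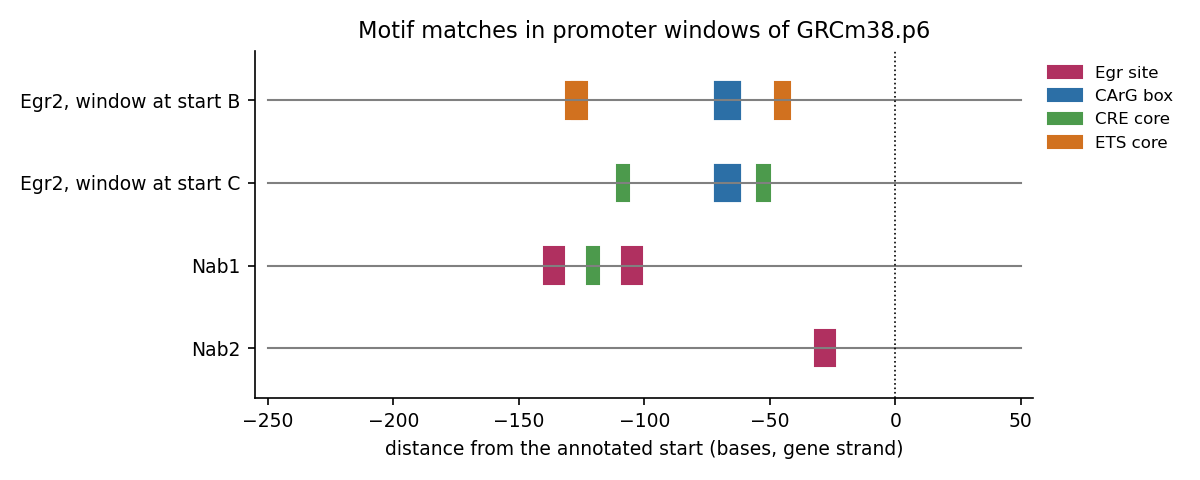
Motif matches in 4 promoter windows, drawn as boxes along the distance from the annotated start in bases on the gene's strand, with colours for the 4 motifs. Both Egr2 windows have a CArG box at -72, and Egr sites appear in the Nab1 and Nab2 windows.

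The deposited values are log2 expression values of one-colour arrays, near equal in median from array to array (4.25 to 4.32), and the arrays of a group correlated at 0.987 to 0.997 over genes. The number of arrays, 5 per group, limits the precision. Dusp5 itself averaged 8.15 ± 0.26 (SD, n = 5) without IL-33 in the wild type and 4.40 ± 0.31 in the knockout, and after IL-33 9.77 ± 0.35 and 4.95 ± 0.18, so every knockout array was below every wild-type array. All 5 eosinophil markers lay above the 40th percentile on every array, including Epx and Prg2, the granule peroxidase and major basic protein, with summed levels of 14.44 to 14.96 on the log2 scale. Neutrophil markers were also present, all 7 of 7, with summed levels of 13.6 to 14.47. Untreated and IL-33 arrays with the same number were taken as the same mouse, because their deviations from the group means correlated. The array labels give only the replicate number. Wild-type mouse 2 stood apart from the other wild-type mice, and results that changed without it are given below. In such bulk RNA, fewer cells of a type and less RNA per cell cannot be told apart.

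IL-33 raised all 5 genes in wild-type and in knockout cells, and the Egr genes rose more than the Nab genes. In wild-type cells Egr3 rose 6.95-fold, Egr2 5.83-fold and Egr1 4.42-fold, while Nab1 rose 1.78-fold and Nab2 1.31-fold. After IL-33, Egr1, Egr2, Egr3 and Nab2 were higher in knockout than in wild-type cells, by 2.86-fold, 1.67-fold, 3.04-fold and 1.50-fold, and Nab1 did not pass the test. The order of the group means was the same for each gene: untreated wild type, untreated knockout, wild type after IL-33, knockout after IL-33. The values below are log2 levels of 1 probe set, comparable between groups for a gene but not between genes.

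Egr1 encodes the founding member of the family, induced by serum and by many cytokines. Untreated wild-type mice 1 to 5 read 7.28, 7.67, 7.17, 7.56 and 7.30, and the untreated knockout mice read 7.70, 8.12, 8.15, 8.26 and 8.14. After IL-33 the arrays read 9.81, 8.94, 9.50, 9.73 and 9.71 in wild-type cells and 11.21, 10.47, 11.57, 10.97 and 11.06 in knockout cells. The 4 groups of Egr1 formed steps with no overlap, although the highest untreated wild-type array (7.67) and the lowest untreated knockout array (7.70) nearly touched. The means were 7.40 ± 0.21, 8.08 ± 0.21, 9.54 ± 0.35 and 11.06 ± 0.40 (SD, n = 5 each), in the order of the steps.

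Egr2, known for its part in myelination and in monocyte and T cell biology, read 7.27, 7.85, 7.23, 7.33 and 7.26 in untreated wild-type cells. In untreated knockout cells it read 7.34, 7.91, 7.48, 8.10 and 7.98. These groups overlapped, since wild-type mouse 2 was higher than knockout mice 1 and 3. After IL-33 Egr2 read 9.75, 10.26, 9.90, 9.93 and 9.80 in wild-type cells and 10.39, 10.66, 10.62, 10.70 and 10.97 in knockout cells. No array of these groups overlapped, with 10.26 as the highest wild-type and 10.39 as the lowest knockout value. The means ran from 7.39 ± 0.26 and 7.76 ± 0.33 in untreated cells to 9.93 ± 0.20 and 10.67 ± 0.21 after IL-33.

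Egr3, which acts with Egr2 in lymphocytes, spread most among untreated arrays. It read 5.91, 7.24, 5.65, 6.17 and 6.20 in untreated wild-type cells and 6.52, 7.78, 7.19, 7.80 and 7.69 in untreated knockout cells. Wild-type mouse 2 was more than 1 log2 unit above the other wild-type mice, and knockout mouse 1 was the lowest of its group. After IL-33 Egr3 read 9.09, 8.74, 8.77, 9.19 and 9.36 in wild-type cells and 10.79, 10.19, 11.08, 10.35 and 10.77 in knockout cells, without overlap. The means were 6.24 ± 0.60, 7.40 ± 0.55, 9.03 ± 0.27 and 10.64 ± 0.36.

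Nab1 encodes one of the corepressors. It read 6.97, 7.19, 6.69, 6.41 and 7.0 in untreated wild-type mice and 6.74, 7.39, 6.96, 7.44 and 7.27 in untreated knockout mice. With IL-33 it read 7.82, 8.12, 7.28, 7.63 and 7.56 in wild-type cells and 7.94, 8.10, 7.89, 8.16 and 8.08 in knockout cells. Each neighbouring pair of groups in the order overlapped for Nab1, and after IL-33 the highest wild-type array (8.12) lay within the knockout range. The means were 6.85 ± 0.30, 7.16 ± 0.30, 7.68 ± 0.31 and 8.04 ± 0.11.

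Nab2, the corepressor described as induced by Egr proteins, read 6.60, 6.94, 6.95, 6.82 and 6.71 in untreated wild-type mice and 6.93, 7.13, 6.90, 7.07 and 7.17 in untreated knockout mice. With IL-33 it read 7.27, 7.36, 6.96, 7.28 and 7.09 in wild-type cells and 7.65, 7.52, 7.95, 7.76 and 7.99 in knockout cells. The knockout arrays after IL-33 were above all other arrays of Nab2, whereas untreated knockout and IL-33-treated wild-type cells overlapped. The means were 6.80 ± 0.15, 7.04 ± 0.12, 7.19 ± 0.16 and 7.77 ± 0.20.

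**Figure D2:**
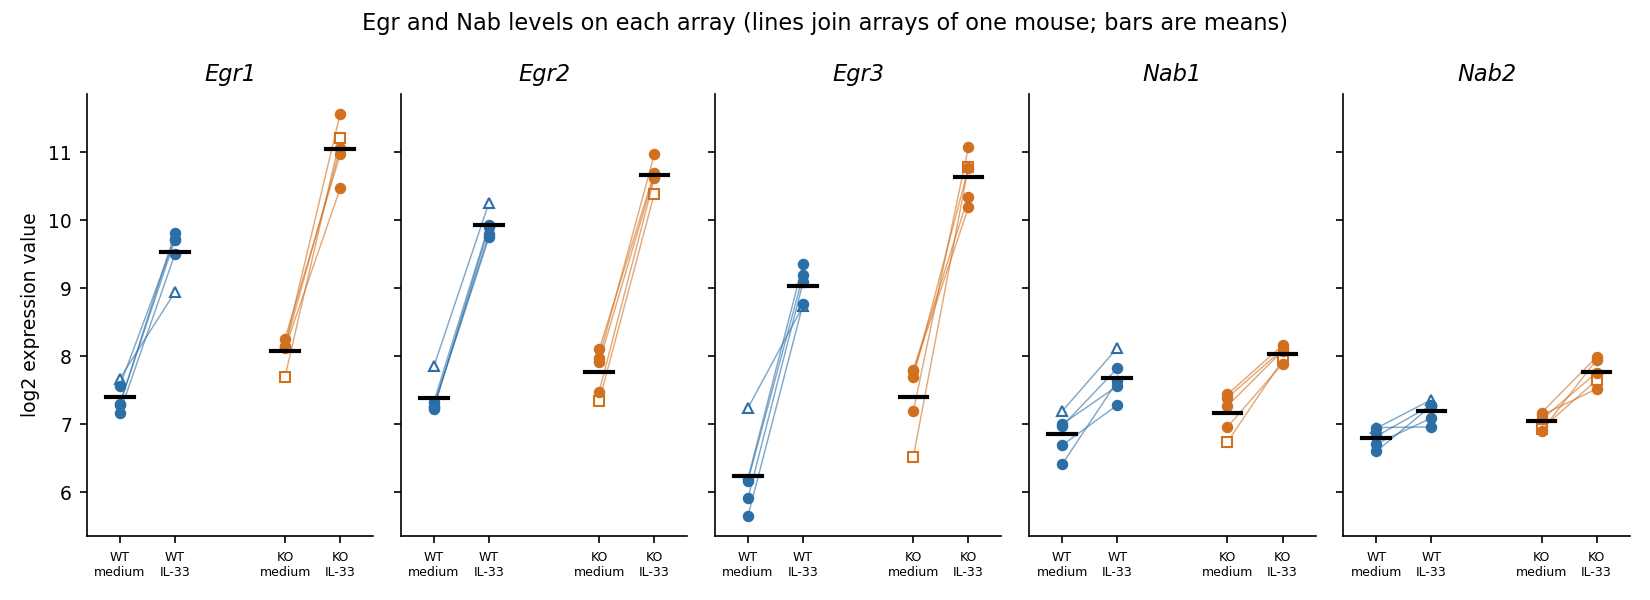
Log2 expression value of each gene on each of the 20 arrays, blue for wild type (WT) and orange for knockout (KO), with lines joining the 2 arrays of a mouse, bars at group means, the open triangle for wild-type mouse 2 and the open square for knockout mouse 1. Every line rises, and for Egr1, Egr2, Egr3 and Nab2 all knockout arrays after IL-33 lie above all wild-type ones.

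The first question was what 4 h of IL-33 does to these genes. In wild-type cells all 5 of 5 were called higher at an adjusted p under 0.05 (limma, Benjamini-Hochberg over 11766 genes), where 16.1% of all tested genes were called higher and 26.7% lower. All 5 also had every IL-33 array above every untreated array, as did 10.7% of all tested genes. For Nab2 the groups nearly touched, with 6.95 as the highest untreated and 6.96 as the lowest IL-33 value, both of mouse 3. The log2 changes were 2.80 ± 0.27 (SE) for Egr3, 2.54 ± 0.15 for Egr2 and 2.14 ± 0.18 for Egr1, with limma adjusted p of 5.87e-08, 5.04e-11 and 6.9e-09. Those of Nab1 and Nab2 were 0.83 ± 0.16 and 0.39 ± 0.10, with limma adjusted p of 0.000296 and 0.0038. Ordered by the size of the rise among the 11766 genes, Egr3 stood at place 40, Egr2 at 54 and Egr1 at 93, and Nab1 and Nab2 at 416 and 1077.

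In knockout cells all 5 of 5 were again called higher, where 18.9% of all tested genes were called higher and 33.2% lower, and all 5 again had no overlap, as did 13.5% of all tested genes in that direction. Egr3 rose by 3.24 ± 0.27 on the log2 scale (9.43-fold), Egr1 by 2.98 ± 0.18 (7.90-fold) and Egr2 by 2.91 ± 0.15 (7.50-fold), with limma adjusted p of 4.65e-09, 3.53e-11 and 4.68e-12. Nab1 rose by 0.88 ± 0.16 (1.84-fold) and Nab2 by 0.73 ± 0.10 (1.66-fold), with limma adjusted p of 0.000115 and 4.35e-06. All 10 calls held in each of the 30 refits that left out 1 array or both arrays of 1 mouse.

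Each of the 10 mice showed a rise in each gene, though the rise of Nab2 in wild-type mouse 3 was only 0.01. For Egr1 the change within a mouse was 2.52, 1.27, 2.33, 2.18 and 2.41 in wild-type mice 1 to 5 and 3.51, 2.36, 3.42, 2.71 and 2.91 in knockout mice 1 to 5. For Egr3 it was 3.18, 1.50, 3.12, 3.02 and 3.16 in wild-type mice and 4.27, 2.40, 3.89, 2.55 and 3.07 in knockout mice. Wild-type mouse 2, with the low changes of Egr1 and Egr3, had both the highest untreated and the lowest IL-33 value of each gene among wild-type mice. The Egr2 change was even across mice, 2.42 to 2.67 in wild type and 2.60 to 3.14 in knockout. Nab1 changed by 0.55 to 1.22 and 0.72 to 1.20, and Nab2 by 0.01 to 0.66 and 0.39 to 1.05, in the same order. For each of the 6 pairs of 1 Egr and 1 Nab gene, the Egr change was larger than the Nab change in 10 of 10 mice, the smallest gap being 0.34 between Egr1 and Nab1.

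**Figure D3:**
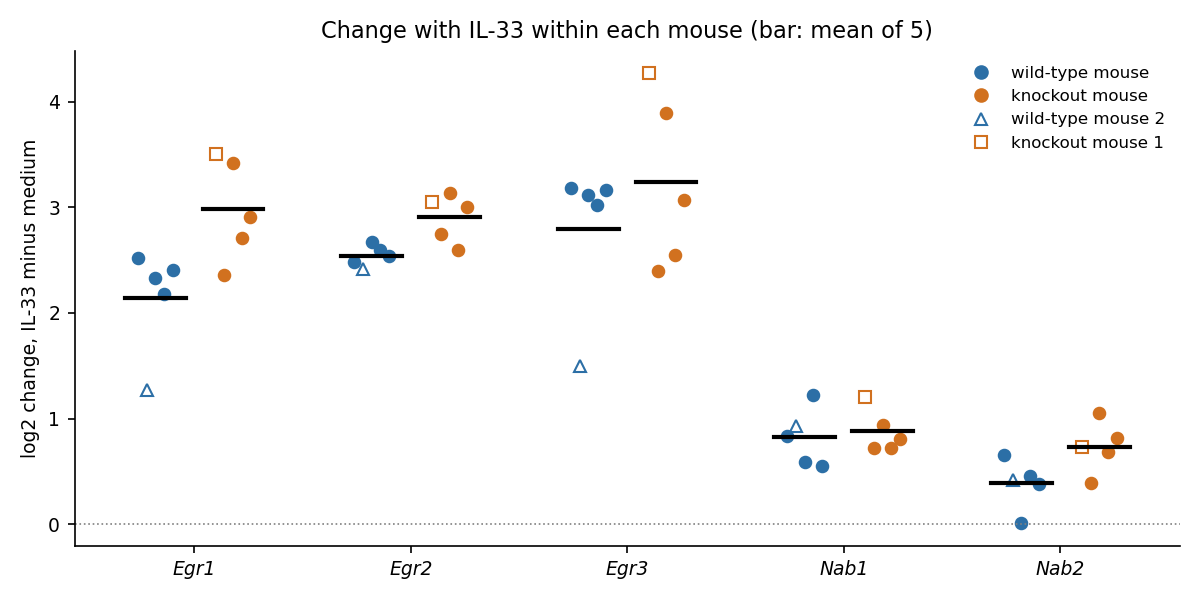
Log2 change with IL-33 within each mouse, for wild-type mice in blue and knockout mice in orange, with bars at the mean of 5 mice. The Egr changes lie between 1.27 and 4.27 and the Nab changes between 0.01 and 1.22, and wild-type mouse 2 (open triangle) has the lowest Egr1 and Egr3 changes.

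The next question was whether the loss of Dusp5 alters these genes before stimulation. None of the 5 passed the test in untreated cells, where limma called 0.017% of all tested genes higher and 0.0085% lower, with 1517 genes at an unadjusted p under 0.05. All 5 means were higher in knockout cells, by 1.16 ± 0.27 on the log2 scale (95% interval 0.60 to 1.72) for Egr3, 0.68 ± 0.18 (0.31 to 1.05) for Egr1 and 0.37 (0.06 to 0.69) for Egr2. The differences of Nab1 and Nab2 were 0.30 (-0.03 to 0.64) and 0.24 (0.03 to 0.44). Limma adjusted p over all tested genes ran from 0.306 for Egr3 to 0.394 for Nab1, while the 95% intervals of all but Nab1, which are not adjusted for the number of genes, lay above 0. Only Egr1 had no overlap, 1 of the 5, as did 0.527% of all tested genes. The result depended on wild-type mouse 2. Without both of its arrays, Egr1, Egr2 and Egr3 were called higher in untreated knockout cells, at 0.75, 0.49 and 1.41 on the log2 scale with limma adjusted p of 0.0383, 0.0476 and 0.0275, and 651 genes were called in all in place of 3. Without its untreated array alone, Egr3 was called (limma adjusted p = 0.0237) and 15 genes in all.

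After IL-33 the knockout exceeded the wild type in 4 of the 5 genes at an adjusted p under 0.05, where limma called 0.986% of all tested genes higher and 1.22% lower. This background, 116 genes higher and 144 lower, was 149 and 63 with quantile normalization, 20 and 4 with only the groups compared, and 644 and 1450 without wild-type mouse 2. The same 4, all but Nab1, had every knockout array above every wild-type array, as did 1.36% of all tested genes. The differences were 1.60 ± 0.27 for Egr3 (limma adjusted p = 0.00658) and 1.52 ± 0.18 for Egr1 (0.000183) on the log2 scale. Ordered by size among the 11766 genes, these stood at places 3 and 4. Egr2 was higher by 0.74 ± 0.15 (limma adjusted p = 0.0218) and Nab2 by 0.58 ± 0.10 (0.00763). For Nab1 the difference was 0.35 ± 0.16, with a 95% interval of 0.02 to 0.69 and a limma adjusted p of 0.182.

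The calls of Egr1, Egr3 and Nab2 held in all 30 refits without an array or a mouse, with limma adjusted p no higher than 0.00172, 0.0433 and 0.0447. That of Egr2 held in 17 of 30. It was lost without the IL-33 array, or both arrays, of wild-type mouse 1, 3, 4 or 5 or of knockout mouse 4 or 5, and without both arrays of knockout mouse 2, with a limma adjusted p of up to 0.0831 and a difference of 0.66 to 0.74 in those refits. Nab1 was called, at 0.46 and a limma adjusted p of 0.0374, when both arrays of wild-type mouse 2 were left out. When only the groups compared entered the fit, Nab2 missed the threshold (limma adjusted p = 0.0554).

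The interaction asks whether the rise with IL-33 itself differed between the genotypes. No member was called, nor was any gene of the table (0% higher and 0% lower by limma), while 568 genes had an unadjusted p under 0.05. The rise in knockout cells exceeded that in wild-type cells by 0.84 ± 0.25 on the log2 scale for Egr1 (95% interval 0.31 to 1.36), with a limma adjusted p of 0.692. For Nab2 the excess was 0.35 ± 0.14 (0.05 to 0.64), with a limma adjusted p of 0.921. For Egr2, Egr3 and Nab1 the intervals held 0, at 0.36 (-0.08 to 0.81), 0.44 (-0.35 to 1.23) and 0.05 (-0.42 to 0.52). All these intervals come from the fit without the mouse as a block. With a random or fixed block the SE for Egr2 was 0.1426 or 0.1055, against 0.214 without. For Egr3 it was 0.3346 or 0.4006, against 0.3793, and for Nab1 0.1574 or 0.135, against 0.2252. The Egr2 difference was 0.36 with either block as well. That its interval held 0 therefore rests on the unblocked fit, and no interval was computed with a block. The changes of the knockout mice overlapped those of the wild-type mice for all 5 genes, whereas 0.901% of all tested genes had no overlap in this direction. With the mouse as a replicate block, random or fixed, limma adjusted p was 0.108 or 0.209 for Egr1, 0.284 or 0.186 for Egr2 and 0.211 or 0.272 for Nab2, and the random block called 26 genes of the table where the fixed block called 0. In this model the difference after IL-33 is the sum of the untreated difference and the interaction, and for Egr1 these were 0.68 and 0.84 and for Egr3 1.16 and 0.44. Without both arrays of wild-type mouse 2 they were 0.75 and 0.62 for Egr1 and 1.41 and 0.12 for Egr3. The Egr3 interaction was also smaller without both arrays of knockout mouse 1 (0.18) or knockout mouse 3 (0.28).

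**Figure D4:**
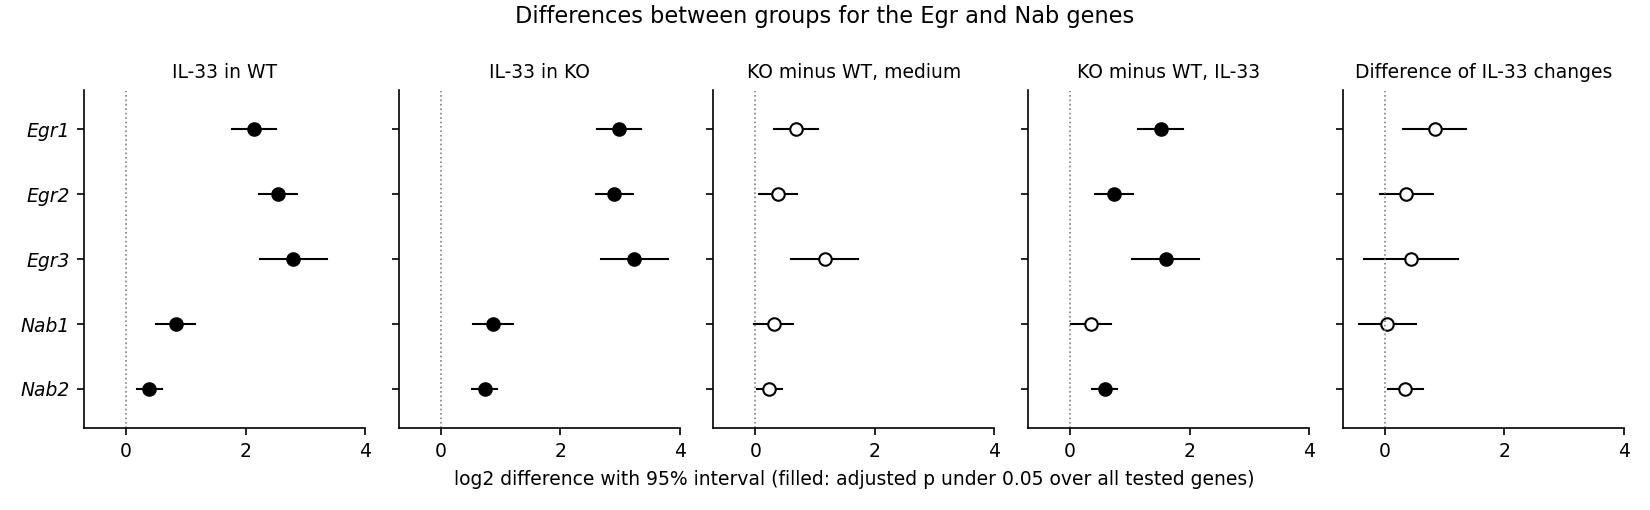
Log2 differences of the 5 genes in the 5 comparisons, points with 95% intervals from the limma fit, filled where the adjusted p over all tested genes was under 0.05. Filled points stand in both IL-33 panels for all 5 genes and after IL-33 between genotypes for all but Nab1.

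Markers of other cells were measured beside these results, and their counts stand against 16.1% of all tested genes called higher and 26.7% lower with IL-33 in wild-type cells and 18.9% and 33.2% in knockout cells. Of 7 markers of monocytes, macrophages and dendritic cells, 3 rose with IL-33 in wild-type cells, Cd14 by 2.13, Adgre1 by 0.70 and Csf1r by 0.62 on the log2 scale, and the same 3 rose in knockout cells, where 1 fell. All 7 lay above the 40th percentile on every array, and their summed level went from 12.41 to 13.09 in untreated wild-type and 12.65 to 13.13 in untreated knockout cells to 13.09 to 13.65 and 13.31 to 13.71 after IL-33. Of the 5 eosinophil markers 2 fell with IL-33 in both genotypes, Il5ra, a growth factor receptor chain, by 0.84 and 1.08 and Siglecf, a lectin, by 0.71 and 0.61, in wild-type and knockout cells. Of 5 mast cell and basophil markers 2 fell in wild-type and 3 in knockout cells, with summed levels of 13.16 to 13.67 over all arrays, and the summed lymphocyte level ran from 6.29 to 9.38, with 1 of 3 called higher in wild-type and none in knockout cells. None of the 7 neutrophil markers was called by limma with IL-33, with 0 and 1 at an unadjusted p under 0.05 in wild-type and knockout cells. The part of these cells in the rise of the Egr and Nab genes was not tested. Between genotypes no marker of any of the 5 cell lists was called by limma, with 0 and 4 of 27 at an unadjusted p under 0.05 in untreated cells and after IL-33. Among all 11766 tested genes, 0.017% were called higher and 0.0085% lower in untreated cells, and 0.986% and 1.22% after IL-33. An unadjusted limma p under 0.05 was found for 1517 and 2836 of these genes. With so few calls overall among tested genes, no call among 27 markers does not show an equal make-up of cells.

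Neighbouring steps of the pathway did not move as one. Egr4, the fourth member of the family, averaged 4.15 and 4.06 in untreated wild-type and knockout cells and 4.19 in both genotypes after IL-33. It was not called in any comparison, its change in wild-type cells being 0.04 with a 95% interval of -0.16 to 0.25. Egr4 was dim, at 3.76 to 4.31 over all arrays, where array medians were 4.25 to 4.32 and 40th percentiles 3.56 to 3.68. Wt1, a related zinc-finger gene, was too dim to be tested.

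Among serum response factor and its cofactors, all 7 of 7 were tested. In wild-type cells 3 rose and 2 fell with IL-33, beside 16.1% higher and 26.7% lower among all tested genes, and the list median was 0.25 on the log2 scale against -0.05 over all of them. Srf itself rose by 0.60 ± 0.08, Mrtfa, an actin-sensing coactivator of Srf, fell by 1.30 ± 0.18, and Elk3, a ternary complex factor with repressor activity, fell by 0.55 ± 0.10. In knockout cells 4 rose and 2 fell, beside 18.9% and 33.2% of all tested genes, with Srf at 0.79, Mrtfa at -1.42 and Elk3 at -0.80. None of the 7 was called between genotypes after IL-33, beside 0.986% of all tested genes called higher and 1.22% lower. An unadjusted limma p under 0.05 was found for 1 of 7, beside 2836 of all 11766 genes. In this list the lowest p belonged to Srf (0.20, limma adjusted p = 0.126) and Fhl2 (0.49, limma adjusted p = 0.24).

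The other immediate-early genes, 19 of 22 tested, split with IL-33. In wild-type cells 10 rose and 3 fell (median 0.37), beside 16.1% higher and 26.7% lower among all tested genes. In knockout cells 11 rose and 3 fell (median 0.54, against -0.08 over all tested genes), beside 18.9% and 33.2%. Ier3, a survival-linked early gene, rose by 2.29 and 2.39 in wild-type and knockout cells, and Nr4a1, an orphan nuclear receptor, by 1.83 and 2.59. Fos, the partner of Jun in AP-1, fell at this time by 1.63 ± 0.12 in wild-type and 1.56 ± 0.12 in knockout cells. After IL-33, 7 of the 19 were higher in knockout cells and none was lower, beside 0.986% and 1.22% of all tested genes, with a median of 0.24 against -0.03 over all tested genes. The largest of these were Nr4a1 (0.82 ± 0.14, limma adjusted p = 0.00582), Fosl1, an AP-1 subunit (0.81 ± 0.11, limma adjusted p = 0.00142), and Nr4a3 (0.70 ± 0.12, limma adjusted p = 0.0069). With only the groups compared in the fit, 4 of the 19 were called. In the interaction 0 of 19 were called, 4 had an unadjusted limma p under 0.05, and 3 were called with the mouse as a random replicate block. Among all 11766 tested genes 0 were called, 568 had an unadjusted limma p under 0.05, and 26 were called with the random block.

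Of 35 genes reported as Egr targets in other cells, 32 were in the table and 27 tested. In wild-type cells 13 rose and 5 fell with IL-33 (median 0.26), beside 16.1% higher and 26.7% lower among all tested genes, led by Socs3, an inhibitor of STAT signalling (3.92), Tnf, the inflammatory cytokine (3.26), and Tnfrsf9, a costimulatory receptor (2.80). In knockout cells 10 rose and 5 fell (median 0.15), beside 18.9% and 33.2% of all tested genes, with Socs3, Tnf and Tnfrsf9 at 3.95, 4.04 and 2.83. After IL-33, 1 of 27 was called between genotypes, Tgfb1, the regulatory cytokine, higher in knockout cells by 0.51 ± 0.12 (limma adjusted p = 0.0332), beside 0.986% of all tested genes higher. An unadjusted limma p under 0.05 was found for 9 of the 27, all of them higher in knockout cells. In either direction it was found for 2836 of all 11766 genes. The median of the 27 was 0.17, against -0.03 over all tested genes. The count of called targets was 0 with only the groups compared in the fit. It was 3 with a stricter filter, with quantile normalization or with the mouse as a random replicate block.

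Of the 13 NuRD subunits, through which Nab proteins can repress, 4 fell and 0 rose with IL-33 in wild-type cells, near the 26.7% of all tested genes called lower. These included Gatad2b (-0.50), Mta3 (-0.50) and Chd3 (-0.32). Chd4, the subunit that Nab2 binds, was not called, at -0.081 in wild-type and 0.015 in knockout cells. With quantile normalization 1 of the 13 rose and 2 fell. With the mouse as a replicate block 8 of 13 were called there, 2 higher and 6 lower. The 26.7% above comes from the fit without a block, so it is not a share to set beside this count. In knockout cells 3 rose and 5 fell, beside 18.9% and 33.2% of all tested genes, with Mta3 at -0.57, Gatad2b at -0.44 and Gatad2a at 0.38. After IL-33 none of the 13 was called between genotypes by limma, beside 0.986% of all tested genes called higher and 1.22% lower. An unadjusted limma p under 0.05 was found for 2 of 13, beside 2836 of all 11766 genes. In this list the lowest p belonged to Rbbp4 (-0.25, limma adjusted p = 0.0908) and Gatad2a (0.30, limma adjusted p = 0.128). In untreated cells no gene of the 5 lists was called between genotypes, beside 0.017% of all tested genes called higher and 0.0085% lower.

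**Figure D5:**
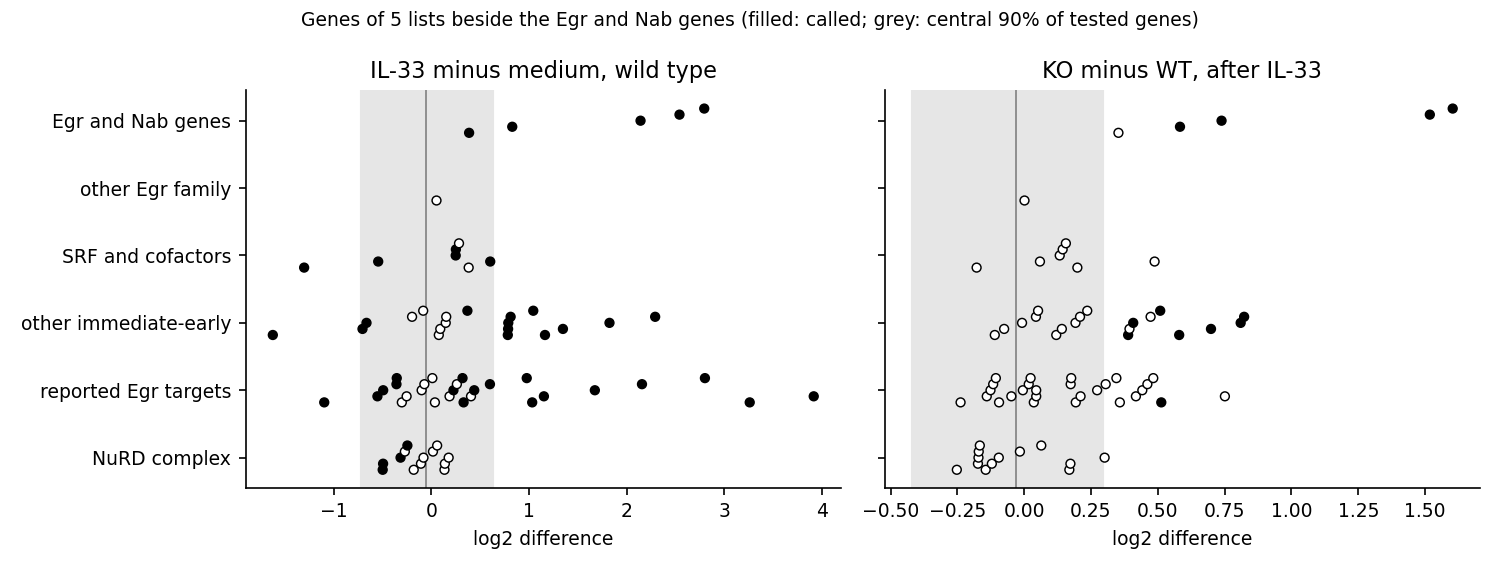
Log2 differences of the Egr and Nab genes and of the tested genes of 5 lists with IL-33 in wild-type cells (left) and between genotypes after IL-33 (right). Each point is a gene, filled where called, the grey band holds the central 90% of all tested genes, and the line is their median. On the right, 4 Egr and Nab genes, 7 other immediate-early genes and Tgfb1 among the reported targets are filled.

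Across the 20 arrays, the members' patterns resembled each other and those of a few further genes. These correlations are descriptions over arrays that share the same 4 groups, so a rise with IL-33 alone makes them high. Egr1 and Egr3 had the closest pattern of any pair of members (r = 0.983), and their deviations within groups also correlated (r = 0.739). Egr1 and Egr2 correlated at 0.947 over all arrays but at 0.055 within groups, and Egr1 and Nab1 at 0.851 and -0.107. Egr2 and Nab1 kept a correlation of 0.688 within groups, and Nab1 and Nab2 of 0.369.

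The genes most like Egr1 over the 20 arrays were Egr3, Nr4a1 (r = 0.968) and Jund (0.962), and those most like Egr3 were Egr1, Il4 (0.968) and Mir22hg (0.967). Il4, the type 2 cytokine, averaged 8.79, 9.20, 9.99 and 10.48 in the order in which Egr3 stepped up. Egr2 was most like Il1rn (r = 0.996), Ell2 (0.994) and Cxcl3 (0.994). Il1rn, the interleukin-1 receptor antagonist, averaged 6.91, 7.41, 9.76 and 10.59 over the same 4 groups. Nab1 was most like Ncf1 (0.972), Ddx3x (0.970) and Jak2 (0.969), and Nab2 most like Rgs16 (0.937), Rbpj (0.934) and Lats1 (0.924).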

How the data were processed

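Per the labels' protocols, biotin-labelled cRNA was prepared by Affymetrix 3' IVT Express. The authors deposited log2 expression values for 20630 probe sets on 20 arrays. The sources used here do not give the background correction, summarization and normalization, so values were taken as they stood. Genes were named from the platform annotation; probe sets with several symbols (91) or none (2711) were left out, and where a gene had several probe sets the one with the highest mean was kept. A gene was tested if it exceeded the array's 40th percentile (3.56 to 3.68) on at least 5 arrays. One linear model with 4 group means was fitted to all 20 arrays (limma 3.58.1, R 4.3.3, with lmFit, then eBayes, on 16 residual degrees of freedom), with Benjamini-Hochberg adjustment over 11766 genes and a threshold of 0.05. The script was tested on simulated data.

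The members and lists were chosen with earlier results of these data known. The text names the 5 members and Dusp5, up to 3 called genes per list and comparison with the largest change (otherwise up to 2 with the lowest p), and the 3 genes most correlated with each member. Egr4 and Wt1 are the whole list of other Egr family genes, and called markers, Epx, Prg2 and Chd4 were named after their values were seen. Within a genotype, the deviations of same-numbered arrays from their group means correlated at 0.262 to 0.783, the same-numbered array being the closest for all 10, and the series text names 5 mice per genotype, so the number was taken as the mouse. Alternatives were other filters, quantile normalization, only the groups compared, the mouse as a block, other eBayes settings and leaving out each array and mouse.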

Additional observations from a re-analysis of the deposited data

Results flagged for a closer look

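In 4 of 30 sets of 5 values, 1 array or mouse lay far from the other 4, by more than 0.71 of the whole range. For a single set of 5 independent normal values, chance gives this about 1 time in 20. The 30 sets share arrays and mice, and the changes are differences of the same levels. The count of 4 can therefore not be set against that rate. In untreated knockout cells Egr1 was lowest in mouse 1, at 7.70. In untreated wild-type cells Egr2 was highest in mouse 2, at 7.85. The IL-33 changes of Egr1 and Egr3 in wild-type mouse 2, 1.27 and 1.50 on the log2 scale, were below those of the other 4 wild-type mice.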

How the results depend on the processing

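The direction of every member held under the other filters, quantile normalization, the mouse as a block, only the groups compared and other eBayes settings. The calls changed in 1 case, Nab2 between genotypes after IL-33, which missed the threshold with only the groups compared (0.58, limma adjusted p = 0.0554). Genes called between genotypes after IL-33 numbered 260, and 152 without a filter, 444 with the filter at the 60th percentile, 24 with only the groups compared and 514 with the mouse as a random replicate block. In the interaction they were 0, and 26 with the random replicate block. Leaving out an array or a mouse gave 24 to 2094 genes called after IL-33 (2094 without wild-type mouse 2, and 1167 without knockout mouse 1), 3 to 651 in untreated cells and 0 to 3 in the interaction. The member differences under these omissions were 0.66 to 0.82 for Egr2, 0.25 to 0.46 for Nab1 after IL-33, and 0.62 to 0.77 for Egr1, 0.29 to 0.49 for Egr2 and 1.02 to 1.41 for Egr3 in untreated cells. The interaction of Nab1 changed sign, from -0.0562 to 0.1579. Among the lists, NuRD calls in wild-type cells went from 4 to 8 with either replicate block, calls after IL-33 from 7 to 4 for immediate-early genes with only the groups compared and from 1 to between 0 and 3 for reported targets, interaction calls with the random block from 0 to 3 and 1, and other Egr family calls in knockout cells from 0 to 1 without a filter. The cause was not tested. The NuRD counts with a block stand here without the share of all tested genes called under the same block. The table gives no background level, so no signal over background could be set beside the members, and other background corrections were not run.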
